A study of Mus musculus with 12 samples.

Results

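The genes described here encode chemokines, the small secreted or membrane-bound proteins that draw leukocytes into tissue, and the receptors that read them. The 39 listed genes, 28 ligands and 11 receptors, were taken by name, and 38 of them could be measured among 20352 genes of the series. Ccl19, a ligand of CCR7, was not analysed here because its 20 probesets carry several gene symbols. Ackr3 and Cxcr2 stand on the platform under their older symbols, Cxcr7 and Il8rb. The 38 genes rest on 185 probesets, most of which cover part of a gene.

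The samples were heart tissue of C57BL/6J mice 12 weeks of age, taken 2 weeks after surgery. The infarcted group held the border zone beside a myocardial infarct from 6 hearts, and the sham group the matching site from 6 hearts that had a sham operation. No transgene or drug is named for either group, and the labels give neither the sex of the mice nor how the infarct was made. The series text calls the samples biological replicates. Each RNA was read on a single one-colour array, and 6 arrays per group limit the precision of every value.

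Chemokine receptors are G-protein-coupled receptors on leukocytes and some tissue cells, and most ligands bind several receptors. The families are named for the spacing of the first cysteines of the ligand, CC, CXC, CX3C or XC. After an infarct, CC ligands of CCR2 draw monocytes, CXC ligands of CXCR2 draw neutrophils, and Cxcl12 acts through CXCR4. Atypical receptors such as Ackr3 bind ligands and remove them without G-protein signalling.

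The infarcted border zone had higher expression of 10 of the 38 genes and lower expression of 3, while 25 did not pass the test. The rises were in the monocyte receptor Ccr2 (2.95-fold), the macrophage-derived ligand Ccl3 (2.12-fold), and the fractalkine receptor Cx3cr1 with its ligand Cx3cl1 (2.01- and 1.79-fold). They were also in the scavenger-receptor ligand Cxcl16 (1.77-fold) and, less strongly, in Ccl12, Cxcl2, Ccr1, Cxcr4 and Cxcl10. The falls were in the eosinophil attractants Ccl11 (2.15-fold) and Ccl24 (1.59-fold) and in Cxcl14 (1.32-fold). All calls are from limma with adjustment over all genes at a threshold of 0.05, where 20.3% of all genes were called, 10.1% as higher and 10.2% as lower. Among the members 26.3% were higher and 7.89% lower, with a median difference of 0.21 on the log2 scale against -0.04 over all genes. With each array centred on its median, 8 members were higher and 4 lower. Over all genes that scaling gave 1748 higher and 2956 lower calls in place of 2050 and 2074.

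The groups did not overlap in 5 members. In Ccr2, Cx3cr1, Cx3cl1 and Cxcl16 every infarcted array lay above every sham array, as in 5.97% of all genes, and in Ccl11 every infarcted array lay below, as in 5.29%. Leaving out infarcted replicates 4 and 5 together gave 6 members higher and 2 lower. Those arrays carried the most signal of atrial markers (8.84 and 8.01, against 6.57 to 7.78 in the other arrays), and replicate 5 also of adipocyte markers (8.02, against 5.97 to 6.61). Without sham replicate 1, or without infarcted replicate 4, 5 members were lower in place of 3.

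**Figure D1:**
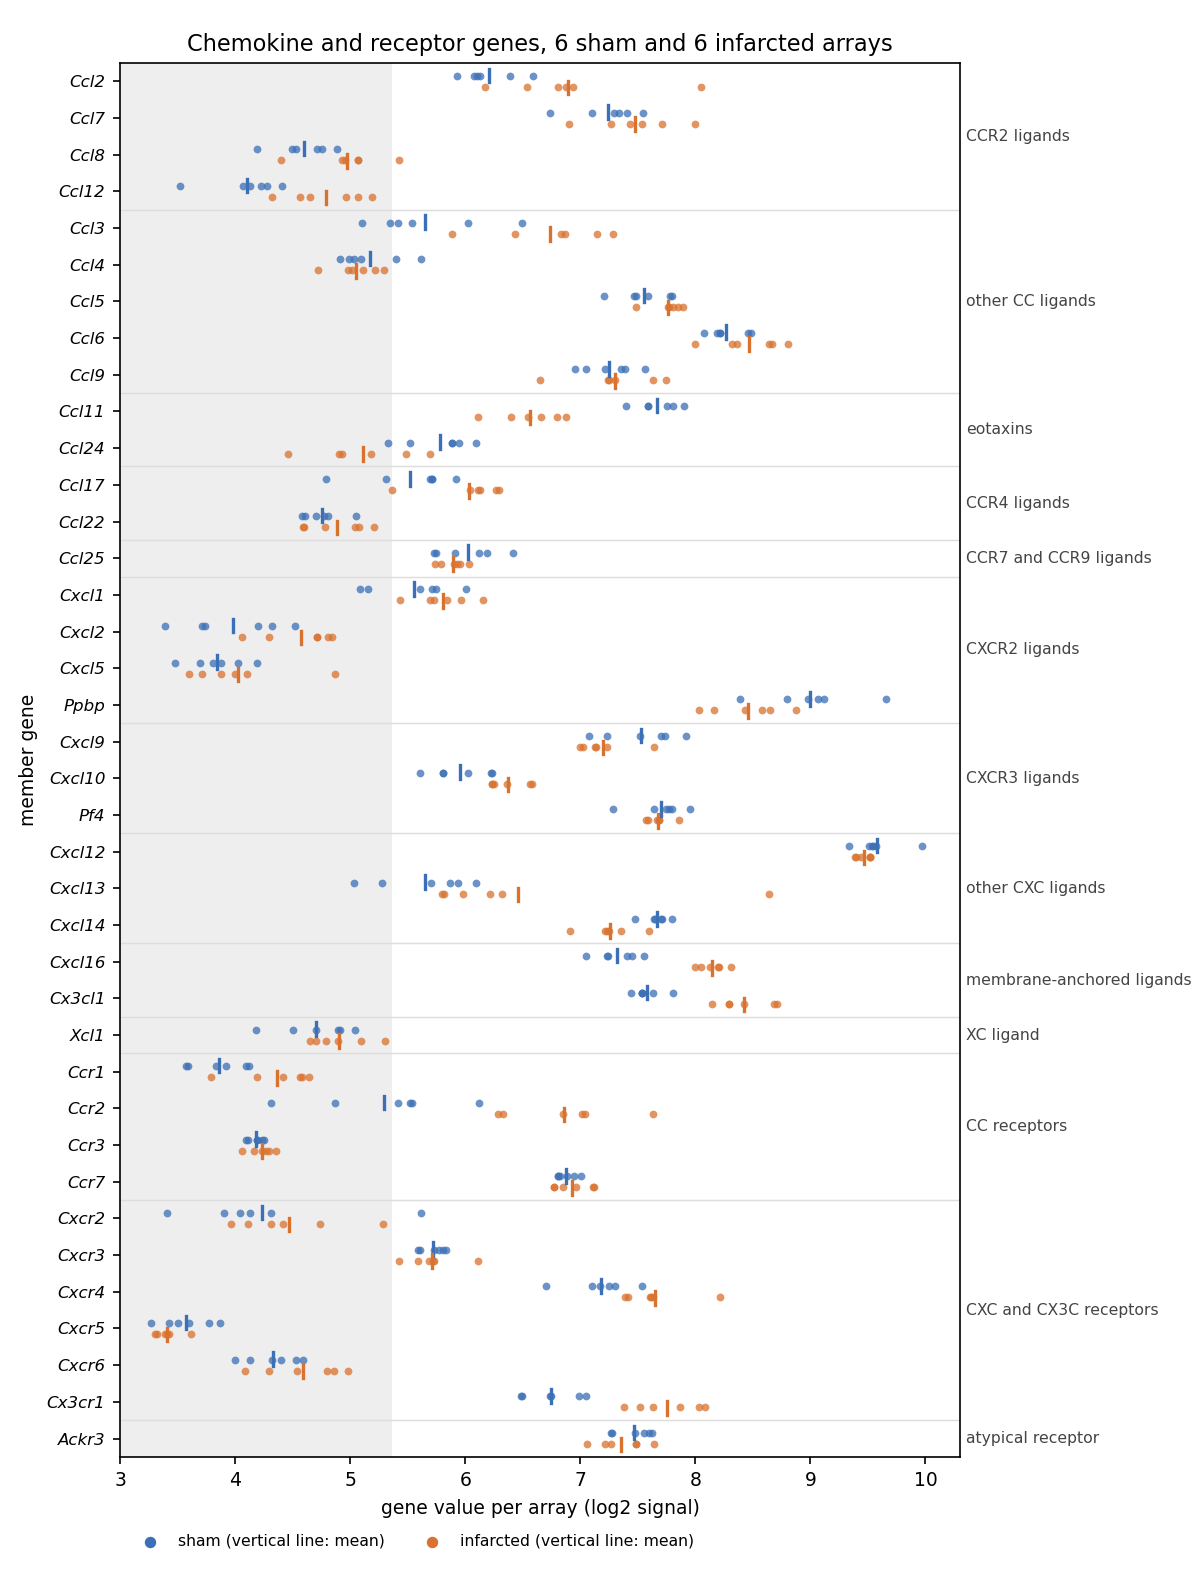
Gene value of each array on the log2 signal scale, with the 6 sham arrays in blue, the 6 infarcted arrays in orange and a vertical line at each group mean. The shaded range lies at or below 5.36, the 95th percentile of olfactory receptor genes in sham tissue; Ccr2, Cx3cr1, Cx3cl1, Cxcl16 and Ccl11 are the members whose groups do not overlap.

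Many of these genes gave little signal in the heart. Olfactory receptor genes, taken as a set with little expected expression in this tissue, had a median of 3.59 and a 95th percentile of 5.36 on the log2 scale in sham arrays. The sham mean of 13 members lay at or below that percentile, between 3.58 and 5.30, and 4 of the 13 rose. Over all genes in that range 6.42% were called, against 26.7% of genes above it. Of the 25 members above it, 6 rose and 3 fell. Array signal holds some background, which was not estimated here, and a difference in signal can therefore be smaller than the true change where a gene is dim. Dim differences can also depend on the probeset. Among the 4 dim members that rose, the brightest probesets of Ccr2 and Ccr1 differed by 0.74 and 0.73. Those of Ccl12 and Cxcl2 differed by 0.01 and -0.13. The tissue is a mixture of cells, and more cells of a type cannot be told apart from more RNA per cell.

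Promoter sequence was taken from RefSeq (GRCm38.p6) as the 250 bases before the transcript start, found for 29 of the 39 genes (30 promoters, since 1 gene has 2 entries). Cx3cl1 and Cx3cr1 are shown as a ligand and receptor that both rose, and Cxcl10 and Cxcl2 as members whose promoters hold letters of known inflammatory motifs. Capitals mark matches to the motifs searched on both strands. These were the NF-kB form (GGG and TTTCC with any 2 bases between), the interferon-stimulated response element (GAAA and GAAA with any 2 bases between), the AP-1 form TGANTCA, the PU.1 form AGGAAGT and the TATA box TATAAA. No matches overlap in the sequences shown, while TATA box matches on opposite strands overlap in Ccl9 and Cxcr4. The windows lie at chr8:94771930-94772179 (plus strand), chr9:120068297-120068546 (minus strand), chr5:92348890-92349139 (minus strand) and chr5:90903649-90903898 (plus strand).
Cx3cl1: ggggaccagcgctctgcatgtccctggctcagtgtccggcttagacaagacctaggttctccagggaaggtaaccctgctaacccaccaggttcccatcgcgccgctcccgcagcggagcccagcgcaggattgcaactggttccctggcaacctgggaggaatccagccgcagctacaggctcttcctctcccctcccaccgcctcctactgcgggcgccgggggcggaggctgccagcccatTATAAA
Cx3cr1: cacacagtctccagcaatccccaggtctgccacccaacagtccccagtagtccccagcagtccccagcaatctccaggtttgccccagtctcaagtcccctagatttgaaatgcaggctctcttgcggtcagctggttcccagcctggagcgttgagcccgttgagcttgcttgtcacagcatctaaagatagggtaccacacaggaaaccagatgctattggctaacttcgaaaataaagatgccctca
Cxcl10: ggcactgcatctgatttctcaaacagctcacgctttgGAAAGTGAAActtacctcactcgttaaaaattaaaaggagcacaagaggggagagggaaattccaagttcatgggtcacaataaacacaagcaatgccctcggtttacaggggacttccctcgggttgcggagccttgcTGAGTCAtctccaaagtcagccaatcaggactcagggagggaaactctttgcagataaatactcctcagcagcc
Cxcl2: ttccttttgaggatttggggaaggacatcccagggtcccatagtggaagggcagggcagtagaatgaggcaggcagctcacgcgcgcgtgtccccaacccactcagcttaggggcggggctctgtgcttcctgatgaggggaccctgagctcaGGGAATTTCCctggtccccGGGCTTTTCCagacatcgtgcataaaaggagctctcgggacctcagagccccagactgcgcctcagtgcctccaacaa

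The Cxcl2 window held the NF-kB form at 2 places, starting 97 and 78 bases before the start. The form was found in 4 of 30 member promoters (Cxcl1, Cxcl2, Ccl9 and Ccr3), of which Cxcl2 rose and the others did not pass, and in 1.41% of all 32851 promoters. The Cxcl10 window held the interferon-stimulated element 213 bases and the AP-1 form 74 bases before the start. The interferon-stimulated element was found in 3 member promoters (Ccl19, Cxcl10 and Cxcl14) and in 2.98% of all promoters. Cxcl10 rose and Cxcl14 fell. The AP-1 form stood in 4 member promoters and 6.75% of all, the PU.1 form in 5 and 7.69%, and the TATA box letters in 10 and 12.4%. Matches were counted at any place in the window. The Cx3cl1 window ended in the TATA box letters, which began 6 bases before the annotated start. Whether they work as a TATA box there was not examined. The Cx3cr1 window held none of the letters searched. These matches describe the sequence and show no binding. Only the exact letters given were searched, so sites with other spellings were not counted. A window without capitals for a motif, as for NF-kB in Cxcl10, is therefore not shown to lack such a site.

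Ccr2 guides inflammatory monocytes out of the bone marrow and into injured tissue. Its sham arrays lay at 4.31, 5.47 and 6.12 (lowest, median and highest log2 signal, n = 6 arrays) and its infarcted arrays at 6.28, 6.93 and 7.63. The lowest infarcted array was thus above the highest sham array. The difference was 1.56 (95% interval 0.96 to 2.16, adjusted p = 0.00117 in limma), and each of its 3 probesets rose, by 0.74 to 1.57. The sham mean of 5.30 was within the range of olfactory receptor genes, and the infarcted mean of 6.86 was above it.

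The genes listed here as ligands of that receptor moved less clearly. Ccl12, a mouse ligand of CCR2, lay at 3.52, 4.18 and 4.40 in sham arrays and at 4.32, 4.81 and 5.19 in infarcted arrays. Only infarcted replicate 4 reached the sham range, and the gene rose by 0.69 (adjusted p = 0.0083). That signal is dim in both groups. With dim probesets left out the value came from its single brightest probeset and was 0.01 (adjusted p = 0.94). Only 1 of its 4 probesets rose.

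Ccl2, or MCP-1, the main monocyte attractant, differed by 0.69 with an adjusted p of 0.0526. Its infarcted arrays spread from 6.17 through a median of 6.84 to 8.05, and its sham arrays from 5.93 through 6.11 to 6.59. The highest value was that of replicate 2, and without it the difference was 0.46 (adjusted p = 0.0434). It also passed without infarcted replicate 1, infarcted replicate 4 or sham replicate 6 (adjusted p = 0.0173, 0.0464 and 0.0454), with dim genes left out and with an intensity trend (adjusted p = 0.0358 and 0.0396). The mean over probesets gave a smaller difference of 0.34 (adjusted p = 0.15), and leaving out dim probesets gave 0.50 (adjusted p = 0.112). Ccl7 differed by 0.23 (adjusted p = 0.377). Ccl8 differed by 0.38 (adjusted p = 0.0933), and without infarcted replicate 2, where it passed, by 0.49 (adjusted p = 0.0135). Of the 4 genes listed here as ligands of CCR2, 1 rose and 3 did not pass. Which receptor each of them uses in this tissue was not examined. Ccl8 also passed with dim probesets left out (0.74, adjusted p = 0.0107).

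Another group of inflammatory CC ligands attracts monocytes, macrophages and T cells. Ccl3, or MIP-1 alpha, lay at 5.11, 5.48 and 6.49 in sham arrays and at 5.89, 6.85 and 7.28 in infarcted arrays. Sham replicates 5 and 6 reached into the infarcted range, and the difference of 1.09 (95% interval 0.55 to 1.63) passed (adjusted p = 0.00707). Its 6 probesets did not move alike: 3 rose, by 1.21 to 1.72, and 3 did not pass, with differences from -0.31 to 0.48. Ccl4, the neighbouring gene with a closely related product, differed by -0.12 (95% interval -0.39 to 0.16) at a dim gene value. Its brightest probesets, with sham means of 9.23 and 8.01, differed by 0.11 and -0.15 and did not pass either. Ccl5 (0.21), Ccl6 (0.20) and Ccl9 (0.05) did not pass either (adjusted p from 0.181 to 0.872), although all of them gave signal well above the olfactory receptor genes, with sham means of 7.55, 8.27 and 7.25. The value of Ccl9 depended on the summary, since its 7 probesets differed by -0.05 to 0.57 and their mean by 0.32 (adjusted p = 0.0836).

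Ccr1, a receptor shared by several of these ligands, rose by 0.51 from a dim sham mean of 3.86 (adjusted p = 0.0243). Its sham arrays lay at 3.58, 3.88 and 4.12 and its infarcted arrays at 3.79, 4.49 and 4.64. The lowest infarcted array fell inside the sham range. The call ended without sham replicate 2 or 6 or without infarcted replicate 2, 3 or 4 (adjusted p from 0.0509 to 0.0563).

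Fractalkine, the product of Cx3cl1, is a membrane-anchored chemokine that also works as an adhesion molecule, and its receptor CX3CR1 marks monocytes and many resident macrophages. Cx3cl1 lay at 7.44, 7.54 and 7.80 in sham arrays and at 8.15, 8.36 and 8.71 in infarcted arrays. Cx3cr1 lay at 6.48, 6.74 and 7.05 in sham arrays and at 7.38, 7.75 and 8.08 in infarcted arrays. In both genes, whose promoters are printed above, every infarcted array was above every sham array. Cx3cl1 rose by 0.84 (95% interval 0.62 to 1.06, adjusted p = 4.91e-05) and Cx3cr1 by 1.004 (95% interval 0.71 to 1.30, adjusted p = 0.000139). Of 5 probesets of Cx3cl1, 4 rose, and of 4 probesets of Cx3cr1, 3 rose. The remaining ones, at 0.45 and 0.31, did not pass.

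Cxcl16 is the other membrane-anchored chemokine, and it also serves as a scavenger receptor for oxidised lipoprotein. Its sham arrays lay at 7.05, 7.32 and 7.56 and its infarcted arrays at 7.996, 8.16 and 8.31, all above the highest sham array. The gene rose by 0.83 (95% interval 0.63 to 1.02, adjusted p = 1.92e-05). Of its 10 probesets 7 rose, by 0.71 to 1.42. The others differed by -0.30 to 0.34 and did not pass, among them the brightest (sham mean 10.69, difference -0.08). A further 2 probesets with several gene symbols were left out. Cxcr6, its receptor on T and NK cells, differed by 0.27 (95% interval -0.06 to 0.59, adjusted p = 0.254) at a dim signal of 4.33 in sham arrays. The 4 probesets of Cxcr6 did not move alike: 1 rose (0.73, adjusted p = 0.012), and the others differed by -0.78 to 0.59 and did not pass.

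**Figure D2:**
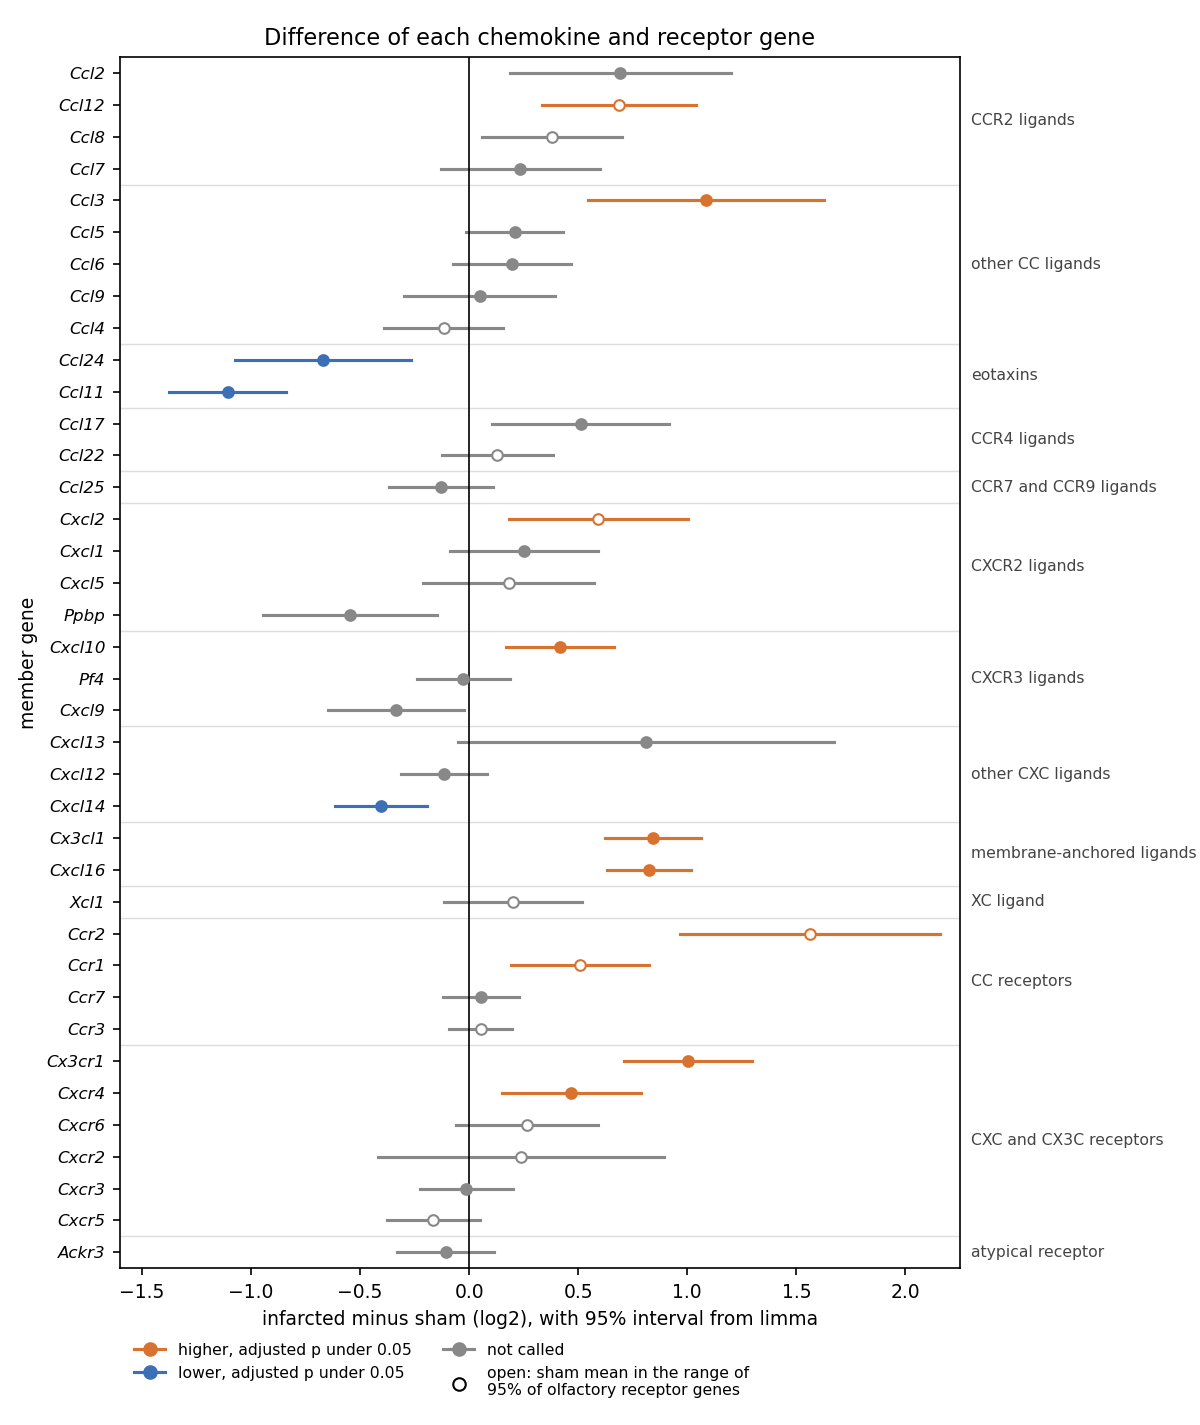
Infarcted minus sham difference of each member on the log2 scale with its 95% interval from limma, grouped by role, in orange where higher, blue where lower and grey where not called. Open points mark sham means at or below 5.36; the receptor Ccr2 has the largest difference (1.56) and the eotaxin Ccl11 the lowest (-1.11).

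The 2 eotaxins among the members, which attract eosinophils through CCR3, both fell. Ccl26, a further ligand outside the members, was dim (sham mean 4.18) and did not pass (-0.22, adjusted p = 0.18). Ccl11 lay at 7.39, 7.67 and 7.90 in sham arrays and at 6.11, 6.60 and 6.88 in infarcted arrays, with no overlap. It fell by 1.11 (95% interval 0.84 to 1.38 lower, adjusted p = 2.74e-05), and all 5 of its probesets fell, by 0.65 to 1.75. Ccl24, made mainly by macrophages, lay at 5.33, 5.89 and 6.09 in sham arrays and at 4.46, 5.05 and 5.69 in infarcted arrays. The groups overlapped, since infarcted replicates 1 and 2 stayed within the sham range, and the gene fell by 0.67 (adjusted p = 0.021). None of its 7 probesets passed singly in limma, though all 7 differences were negative (-0.68 to -0.36). The call ended without infarcted replicates 4 and 5 together (-0.46, adjusted p = 0.0977).

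Ccr3 itself gave a dim and even signal, 4.18 ± 0.06 in sham and 4.23 ± 0.10 in infarcted arrays (SD, n = 6), a difference of 0.05 (95% interval -0.09 to 0.19). Of 5 eosinophil markers none passed in limma, and 1 had an unadjusted p under 0.05, as did 32% of all genes. Their mean level per array ranged from 4.76 to 4.87 in sham and from 4.68 to 4.96 in infarcted tissue. Ear2 had the smallest p (0.58, adjusted p = 0.0522), and its sham mean of 6.22 was above the olfactory reference, while those of the other 4 were not. Fibroblasts, a known source of Ccl11, had all 10 of their markers higher, with a mean level per array of 8.96 to 9.33 in sham and 10.62 to 11.03 in infarcted tissue. The part of either cell type in the fall of the eotaxins was not tested.

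Among ligands of CXCR2, the neutrophil receptor, Cxcl2 lay at 3.39, 3.97 and 4.52 in sham arrays and at 4.06, 4.71 and 4.85 in infarcted arrays. The groups overlapped, and both lay in the range of olfactory receptor genes. The gene, whose promoter is printed above, rose by 0.59 (adjusted p = 0.0412). None of its 4 probesets passed singly in limma, and 3 differences were positive. The call ended without sham replicate 1, 2 or 3 or without infarcted replicate 1, 3, 4 or 6 (adjusted p from 0.0748 to 0.089). Cxcl5 (0.18) did not pass, nor did Cxcl1, which differed by 0.25, or by -0.18 with dim probesets left out. Cxcr2 differed by 0.24 (95% interval -0.42 to 0.89), and its sham arrays spread from 3.41 to 5.62. Of 10 neutrophil markers none passed in limma, with 2 at an unadjusted p under 0.05. Their mean level was 4.30 to 4.96 in sham and 4.56 to 4.88 in infarcted arrays. Mpo had the smallest p among them (-0.37, adjusted p = 0.0614).

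Ppbp and Pf4 are platelet chemokines. Ppbp differed by -0.54 (95% interval -0.94 to -0.15) and did not pass (adjusted p = 0.0521). Its sham arrays lay at 8.39, 9.02 and 9.66 and its infarcted arrays at 8.03, 8.51 and 8.88, with overlap. Of its 5 probesets 3 fell, by 0.58 to 0.73. It passed in 9 of 20 other settings, among them without sham replicate 1 or infarcted replicate 4 (adjusted p = 0.0152 and 0.0308). Pf4 differed by -0.03 (95% interval -0.24 to 0.19). Of 9 mast cell and platelet markers Kit rose by 0.70 and the platelet gene Gp9 fell by 0.44 (adjusted p = 0.00911 and 0.0461). The other 7 did not pass. Among them the mast cell genes Tpsb2, Cma1, Cpa3, Ms4a2 and Mcpt4 differed by -0.23 to -0.0059. The platelet genes Itga2b and Gp1bb differed by -0.12 and 0.05. The mean level of the list overlapped between sham (5.50 to 5.78) and infarcted arrays (5.46 to 5.72).

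Cxcl9 and Cxcl10 are interferon-induced ligands of CXCR3 on T cells. Cxcl10, whose promoter is printed above, lay at 5.61, 5.92 and 6.23 in sham arrays and at 6.23, 6.30 and 6.58 in infarcted arrays, so that the groups met at 6.23. It rose by 0.42 (adjusted p = 0.0195), and without infarcted replicates 4 and 5 together its adjusted p was 0.0605. Cxcl9 differed in the other direction, by -0.33, and did not pass (95% interval -0.65 to -0.02, adjusted p = 0.127). It passed without sham replicate 1 or infarcted replicate 4 (adjusted p = 0.0446 and 0.0439). Cxcr3, with a single probeset, differed by -0.01 (95% interval -0.23 to 0.20). Among the 12 markers of T and NK cells, 1 fell (Cd28, by 0.81, adjusted p = 0.000897) and 11 did not pass.

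Cxcl12, the CXCR4 ligand that retains progenitor cells in bone marrow, gave a clear signal in every array, from 9.33 to 9.97 in sham and from 9.39 to 9.52 in infarcted tissue. The gene value differed by -0.12 (95% interval -0.31 to 0.08, adjusted p = 0.428). Of its 7 probesets, 2 fell, by 0.48 and 0.56 (adjusted p = 0.00381 and 0.00257 over all probesets, of which 10.7% were called), and the other 5 differed by -0.11 to 0.12. Which transcript forms these probesets read was not examined. The highest sham value, 9.97 in replicate 5, stood apart from the other sham arrays.

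Cxcr4 lay at 6.70, 7.21 and 7.54 in sham arrays and at 7.39, 7.61 and 8.22 in infarcted arrays. Infarcted replicates 2 and 5 stayed within the sham range. The gene rose by 0.47 (adjusted p = 0.0377), a call that ended without sham replicate 1, 2, 3 or 4 or without infarcted replicate 1, 3, 4 or 6 (adjusted p from 0.0546 to 0.0755). Of its 3 probesets the one that differed least (0.47) did not pass, and the others rose by 0.87 and 0.94. The call also ended with centred arrays, quantile normalization and the replicate block (adjusted p = 0.0539, 0.0562 and 0.106), and in 12 of 20 other settings in all. The gene value, a median over probesets, followed the probeset that differed least, and with the mean over probesets the difference was 0.76 (adjusted p = 0.000546). Ackr3, the atypical receptor that scavenges Cxcl12, differed by -0.11 (95% interval -0.33 to 0.12).

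Cxcl14, an epithelial and stromal chemokine whose receptor is debated, fell by 0.40 (adjusted p = 0.00973). Its sham arrays lay at 7.48, 7.67 and 7.80 and its infarcted arrays at 6.91, 7.24 and 7.60. Only infarcted replicate 2 reached the sham range. Of its 6 probesets 3 fell, and all 6 differences were negative.

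Cxcl13 draws B cells through CXCR5. Its difference of 0.81 did not pass (95% interval -0.05 to 1.67, adjusted p = 0.182). Sham arrays spread from 5.03 through a median of 5.79 to 6.09, and infarcted arrays from 5.80 through 6.10 to 8.64. The value of 8.64 was that of replicate 5, and without it the difference was 0.38 (adjusted p = 0.189). Replicate 5 also had the highest mean level of B cell markers (6.10, against 5.11 to 5.86 in the other arrays) and of adipocyte markers. Their part in the value was not tested. With dim probesets left out Cxcl13 passed (1.55, adjusted p = 0.000542), and with the mean over probesets it also passed (1.34, adjusted p = 0.0243). Cxcr5 was dim (sham mean 3.58) and differed by -0.16 (95% interval -0.38 to 0.05).

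The remaining ligands did not pass. Ccl17, a product of dendritic cells that binds CCR4, differed by 0.51 (95% interval 0.11 to 0.92, adjusted p = 0.0729). Its infarcted arrays lay between 6.04 and 6.29 apart from replicate 1 at 5.37. It passed without that replicate or without sham replicate 6 (adjusted p = 0.0153 and 0.0484), and with dim probesets left out (0.47, adjusted p = 0.018). With the mean over probesets it differed by 0.30 (adjusted p = 0.0555). Ccl22, the other ligand of CCR4, differed by 0.13, Ccl25, a thymic ligand of CCR9, by -0.13, and Xcl1, which acts on cross-presenting dendritic cells, by 0.20. Ccr7, which leads dendritic cells and T cells to lymph nodes, differed by 0.05 (95% interval -0.12 to 0.23).

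**Figure D3:**
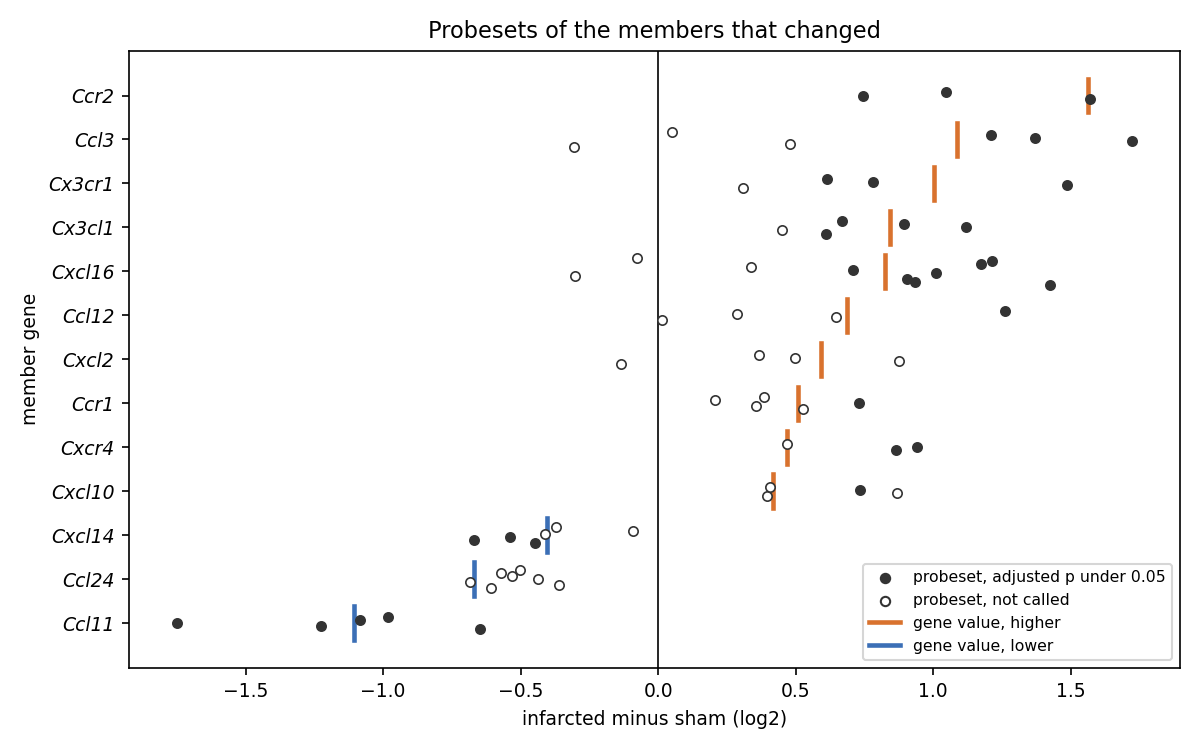
Infarcted minus sham difference of every probeset (points) of the 13 members that changed, on the log2 scale, filled where the probeset passed over all probesets, with the gene value as a coloured bar. All 5 probesets of Ccl11 and all 3 of Ccr2 passed, while none of Ccl24 or Cxcl2 did.

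Several members lie next to each other in gene clusters, and the differences of neighbours are given here side by side, with no test between them. Members within 200 kb of the next member on the RefSeq assembly GRCm38.p6 were grouped. On chromosome 11, Ccl11 (-1.11) lies between Ccl7 (0.23) and Ccl12 (0.69), and Ccl2 (0.69) and Ccl8 (0.38) complete the 5. The second group on chromosome 11 holds Ccl5, Ccl9, Ccl6, Ccl3 and Ccl4 in that order, and 1 of these 5, Ccl3, rose. On chromosome 5, Cxcl5, Ppbp, Pf4, Cxcl1 and Cxcl2 form a group with differences from -0.54 to 0.59, and Cxcl9 and Cxcl10 lie side by side. On chromosome 8, Cx3cl1 (0.84) lies between Ccl22 (0.13) and Ccl17 (0.51). On chromosome 9 the receptors Cxcr6, Ccr1, Ccr3 and Ccr2 differed by 0.27, 0.51, 0.05 and 1.56. Closely related neighbours can share probe sequence, so single values within a cluster are uncertain to that extent.

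**Figure D4:**
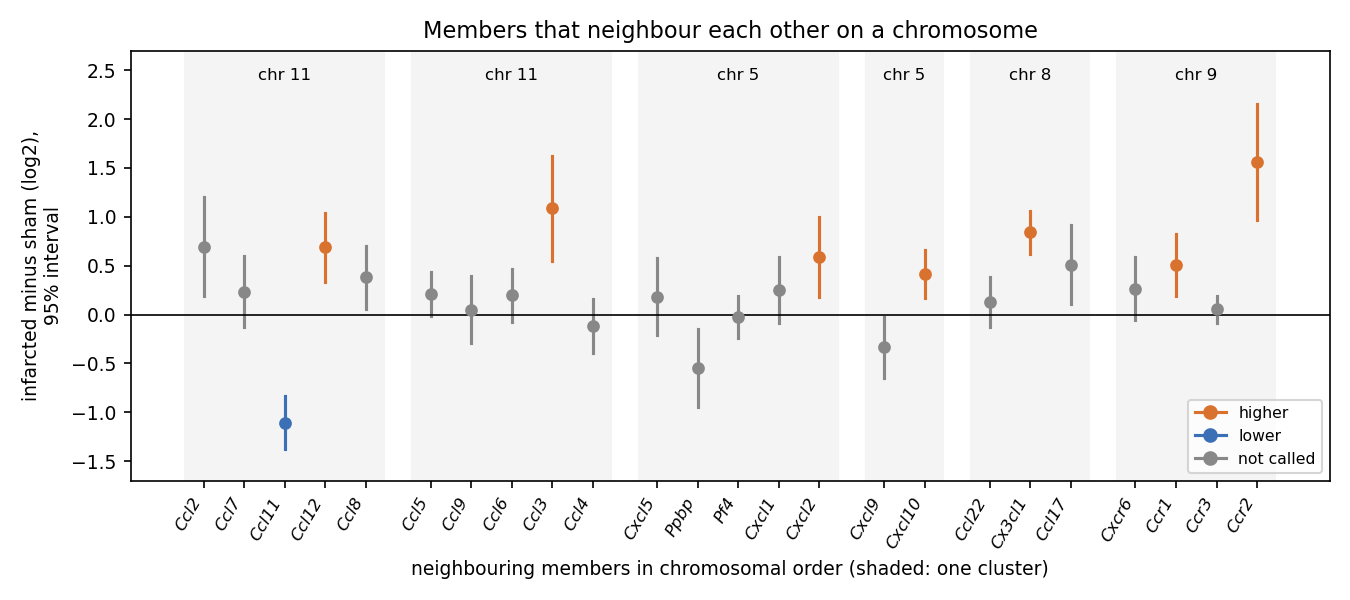
Infarcted minus sham difference on the log2 scale with its 95% interval for members that neighbour each other, in chromosomal order, each shaded block being a cluster. Ccl11 at -1.11 stands between Ccl7 at 0.23 and Ccl12 at 0.69, and Ccr2 at 1.56 lies beside Ccr3 at 0.05.

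Other genes of the chemokine system were read from lists taken by name. Of 10 further ligands none passed in limma, with 1 at an unadjusted p under 0.05, and Ccl27a had the smallest p (-0.30, adjusted p = 0.0678). Of 13 further receptors Cmklr1, the chemerin receptor of macrophages, rose by 0.60 (adjusted p = 0.000791). Ackr1 and Ccrl2, atypical or non-signalling receptors, fell by 0.51 and 0.62 (adjusted p = 0.0445 and 0.0473), Ackr1 from a dim sham mean of 3.55. Of 25 genes listed for receptor signalling and cell movement, 12 rose and 1 fell, with a median of 0.33. Over all genes 10.1% were higher and 10.2% lower. Pik3r5, the regulatory subunit of the PI3-kinase that chemokine receptors activate, rose by 0.87 (adjusted p = 3.56e-06). The receptor kinase gene Grk5 rose by 0.69 and Vav1, a leukocyte exchange factor for Rac, by 0.82 (adjusted p = 2.87e-05 and 0.000196). Rgs2, which shortens G-protein signals, fell by 0.87 (adjusted p = 0.00219). The part of chemokine receptors, or of the cells present, in these differences was not tested.

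Of 9 proteases that cut or shed chemokines 5 rose and none fell. Ctsk, Mmp2 and Mmp14 rose by 1.76, 1.69 and 1.82 (adjusted p = 1.35e-07, 1.58e-07 and 4.28e-07). Adam10, which releases fractalkine and Cxcl16 from the membrane, rose by 0.30 (adjusted p = 0.00396), and was named after its value was seen. Adam17, another shedding protease of the list, did not pass (0.11, 95% interval -0.08 to 0.30, adjusted p = 0.456). Of 16 cytokines and transcription factors that induce chemokine genes 5 rose and none fell, while Il13, which did not pass, had a difference of -0.23 (adjusted p = 0.0824). The smallest p values were those of the hypoxia factor Hif1a (0.58, adjusted p = 8.56e-05), Il6 (0.68, from a dim 2.98 in sham, adjusted p = 0.00236) and the NF-kB subunit Relb (0.49, adjusted p = 0.0113).

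Markers of the cells that could carry these genes were read beside them. The cardiomyocyte markers that define the tissue were bright in all arrays, with a mean level per array of 13.30 to 13.34 in sham and 13.18 to 13.28 in infarcted tissue, a small gap without overlap. Of 10, none passed in limma and 4 had an unadjusted p under 0.05 (against 32% of all genes), Myh6 having the smallest (-0.18, adjusted p = 0.0688). Of 22 macrophage and monocyte markers 15 rose and none fell. Their mean level was 7.58 to 7.84 in sham and 8.15 to 8.45 in infarcted arrays, without overlap. Lgals3, Mpeg1 and C1qb had the smallest p (1.86, 1.66 and 0.75, adjusted p = 1.25e-06, 7.41e-06 and 1.18e-05). Of the 7 that did not pass, Cd163 (-0.41), Timd4 (-0.38), Lyve1 (-0.29) and Folr2 (-0.07), markers of resident macrophages, differed in the other direction. Their adjusted p ran from 0.0987 to 0.735. Other macrophage markers of the list did not follow them: Mrc1 rose by 0.33 (adjusted p = 0.0302), and Mertk differed by 0.18 (adjusted p = 0.319). The monocyte marker Ly6c2, with 2 probesets and a bright sham mean of 9.67, differed by -0.0012 (adjusted p = 0.997). Whether its probesets also read related genes of other cells was not examined. The part of the list in the rises of Ccr2, Cx3cr1, Ccl3, Ccr1 and Cxcl16, genes that macrophages or monocytes also express, was not tested. An array has no zero level, so no marker could be called absent. Of the single markers, 9 of 10 for neutrophils and 4 of 5 for eosinophils had sham means at or below the olfactory reference, Csf3r (5.86) and Ear2 (6.22) being the exceptions.

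Of 8 dendritic cell markers Cd209a and Itgax rose by 0.83 and 1.05 (adjusted p = 1.92e-05 and 0.000614). The other 6 did not pass, among them Zbtb46 (-0.22, adjusted p = 0.0827), Siglech (0.03) and Xcr1 (0.13). The mean level of the list was 4.99 to 5.14 in sham and 5.21 to 5.74 in infarcted arrays. Of 7 B cell markers Cd79b rose by 0.54 (adjusted p = 0.0177). Of 10 endothelial markers, cells known to make Cx3cl1, Erg rose by 0.35 (adjusted p = 0.0257), and the mean level was 9.69 to 9.96 in sham and 9.80 to 10.05 in infarcted arrays. Mfap5, Postn and Col1a1 had the smallest p among fibroblast markers (2.37, 3.08 and 2.55, adjusted p = 2.43e-09, 2.78e-09 and 1.58e-08). Of 5 atrial markers Nppa, which stressed ventricular muscle also makes, rose (2.04, adjusted p = 2.78e-09), and of 7 adipocyte markers none passed in limma, with 0 at an unadjusted p under 0.05 and Adipoq having the smallest p (0.71, adjusted p = 0.259). Among the 10 members that rose, infarcted replicate 3 held the highest value of its group in 6. It also had the highest level of its group for fibroblast (11.03), dendritic cell (5.74), eosinophil (4.96) and T and NK cell markers (5.24). For macrophage and monocyte markers infarcted replicate 5 was highest (8.45, against 8.42 in replicate 3). The part of any of these cells was not tested.

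**Figure D5:**
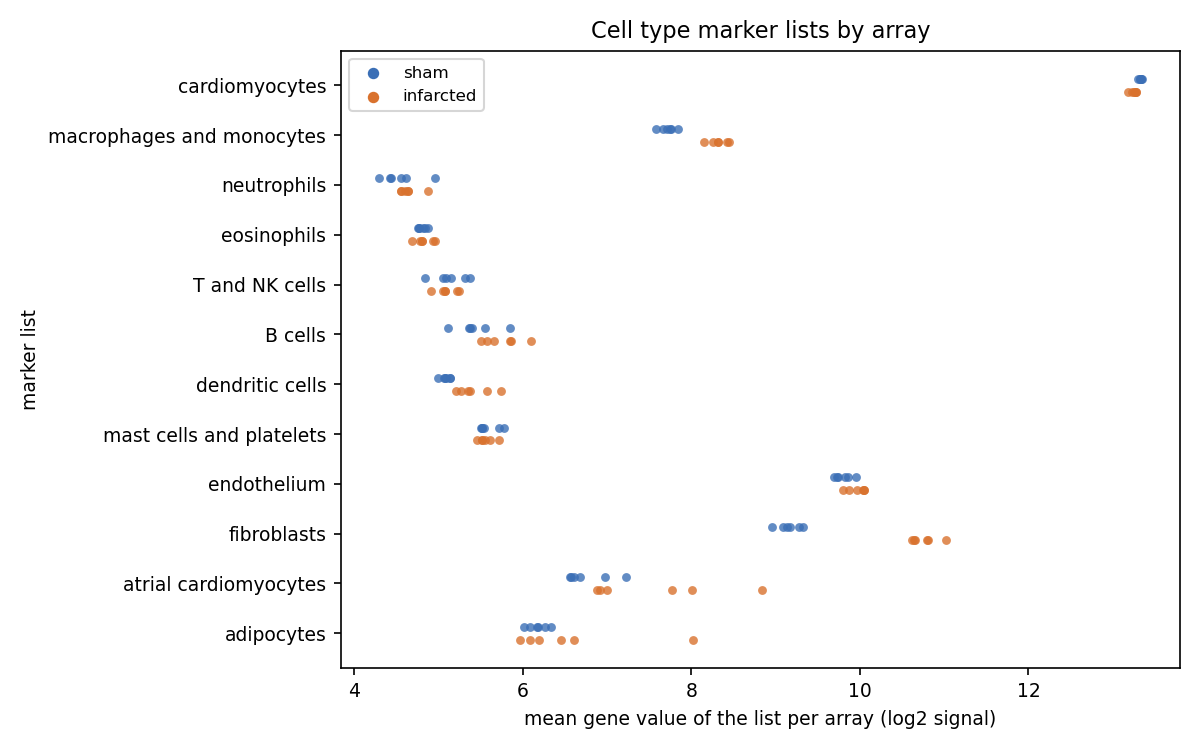
Mean gene value of each cell type marker list in every array on the log2 signal scale, sham arrays in blue and infarcted arrays in orange. Macrophage and monocyte markers (7.58 to 7.84 against 8.15 to 8.45), fibroblast and, by small gaps, dendritic cell and cardiomyocyte list means separate the groups, and all other lists overlap.

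Over all members, Ccl11, Cxcl16, Cx3cl1, Cx3cr1, Ccr2, Ccl3 and Cxcl14 passed in the principal comparison and in each of the 20 other settings tried. The other 6 calls ended in at least 1 setting.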

How the data were processed

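Per the labels' protocols, total RNA was made into biotin-labelled cDNA for one-colour arrays, and Affymetrix Power Tools, with no version, is listed in the submitters' processing notes. The deposited values of 241576 probesets, from 1.52 to 14.37, were read as log2 signal. Their log base and normalization were not given in the sources used. Array medians lay between 7.00 and 7.03 in sham and between 7.04 and 7.06 in infarcted arrays, a small gap without overlap. With medians this close, a shift of all genes would not be seen. The arrays correlated from 0.956 to 0.979, and none of the 66 pairs held identical values.

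Genes were named from 212097 probesets with 1 symbol, updated through RefSeq (2742 of 20416 symbols), and the gene value was the median over probesets. Groups and replicate numbers came from the titles. The test was the moderated one of limma (version 3.58.1, under R 4.3.3, two-sided, Benjamini-Hochberg over all genes, threshold 0.05), without a filter on dim signal, and each probeset was fitted in the same way. Intervals are 95% from that fit. Figures were drawn with matplotlib 3.10.9.

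In data simulated for 20352 genes with 200 changed, 95 of 100 genes changed by 1 (log2), 36 of 50 changed by 0.5 and 4 of 50 changed by 0.25 were recovered, and 10 of 20152 unchanged genes were called. The simulation changed a smaller share of genes than the 20.3% called in the data. Its recovery rates therefore do not give those of the real comparison. The members and lists were chosen with earlier results of these data known. The atrial and adipocyte lists, the promoter motifs and the olfactory receptor reference were added after the values were seen. Every member was to be named, and from other lists the up to 3 genes with the smallest p past the threshold, with the first in the other direction, or the 1 with the smallest p where none passed. Zbtb46, Siglech, Xcr1, Cd163, Timd4, Lyve1, Folr2, Ly6c2, Csf3r, Il13 and Adam10 were named after their values were seen. The same holds for Mrc1, Mertk, Adam17, Ccl26, Tpsb2, Cma1, Cpa3, Ms4a2, Mcpt4, Itga2b and Gp1bb. Ccr9 and Xcr1 stand in both the receptor and the dendritic cell list. The alternatives were another summary over probesets, filters on dim probesets or genes, other scalings, an intensity trend, a replicate block, and arrays left out.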

Additional observations from a re-analysis of the deposited data

Results flagged for a closer look

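In each group of 6 arrays, the gap between an extreme array and its nearest neighbour was set against the range of the group for every member. Of 76 member groups 6 stood out, and chance alone flags about 1 in 20 groups. Infarcted replicate 5 was far above its group for Cxcl13 (8.64, next array 6.32). Infarcted replicate 3 was high for Cxcr4 (8.22, next 7.63), and infarcted replicate 4 for Cxcl9 (7.64, next 7.24). Infarcted replicate 1 was low for Ccl17 (5.37, next 6.04), and infarcted replicate 2 was low for Ccl5 (7.49, next 7.76). Sham replicate 5 was high for Cxcl12 (9.97, next 9.57). Of these members Cxcr4 passed the comparison, and its call ended without infarcted replicate 3 (0.35, adjusted p = 0.0662). Ccl17 passed without infarcted replicate 1, and Cxcl9 without infarcted replicate 4. No cause was tested for any of these values.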

How the results depend on the processing

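Of the 13 members called, 7 kept their direction and their call in all 20 other settings, and 6 lost it in at least 1. No called member changed direction in the settings in which it was tested. Of the 25 members not called, 18 passed in none of those in which they could be fitted (dim members dropped out of 1 or 2) and 7 passed in at least 1 (Ccl2, Ccl8, Ccl17, Cxcl9, Cxcl13, Ppbp and Cxcr6). With a single array left out, 3454 to 4138 genes were called, and 7 to 11 members were higher and 3 to 5 lower. Without infarcted replicates 4 and 5 together, 3123 genes were called, with 6 members higher. The mean over probesets gave 5674 genes, 11 members higher and 4 lower. Ccl12 lost its call with dim probesets left out (0.01), where its value comes from 1 probeset by construction. Cxcl2 (adjusted p = 0.0528) and Cxcr4 (adjusted p = 0.0539) lost theirs with centred arrays, and Cxcr4 also with quantile normalization (adjusted p = 0.0562), and no cause was tested. The replicate numbers are shared by the groups, but same-numbered arrays deviated together only weakly (correlations from -0.05 to 0.10, with 1 of 6 pairs over 0.1), and 4 of 12 arrays correlated best with their own number. With the replicate block 3802 genes were called, and 10 members were higher and 4 lower. Under it Ppbp and Cxcr6 passed (adjusted p = 0.0473 and 0.0339) and Cxcr4 did not (adjusted p = 0.106). Without infarcted replicates 4 and 5 together Ccl24, Cxcl2, Cxcl10, Ccr1 and Cxcr4 did not pass (adjusted p from 0.0503 to 0.105), and with the mean over probesets Cxcl2 did not (adjusted p = 0.0565). Among members not called, Ccl9, Ccr7, Cxcl1, Cxcr3 and Pf4 changed direction in at least 1 setting. Dim signal limits the gene values of the 13 members at or below the olfactory reference.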
